A study of Drosophila melanogaster with 2 samples.

Results

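The 10 genes described here encode insulator and architectural proteins of the fly: Chro, Cp190, Trl, BEAF-32, CTCF, su(Hw), mod(mdg4), pita, ZIPIC and Dref. They were listed by name, not by a cut on their values, though earlier results of these data were known. They are 10 of the 13945 protein-coding genes annotated on the 6 chromosome arms. The study was a chromatin immunoprecipitation with sequencing of the product of CG14441 in whole Drosophila melanogaster embryos 0 to 24 h old. The flies carried an insertion that gives CG14441 fused to the fluorescent protein eGFP, and the fusion was precipitated with an antibody against GFP. All samples belong to 1 group, with 2 biological replicates, so there is nothing to contrast them with. The embryos span all stages and cell types of that interval, and the labels used here do not say which promoter drives the fusion or in which cells it is made. A peak therefore says nothing of the cell type it comes from.

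Insulator proteins bind DNA between genes and at gene starts, where they can block an enhancer from reaching a promoter or halt the spread of silent chromatin. Some of them, such as CTCF, su(Hw), BEAF-32, pita and ZIPIC, contact DNA by sequence, and others, such as Cp190, Chro and mod(mdg4), are held there by them. In the fly many of these proteins lie at the borders of contact domains, which are often the promoters of housekeeping genes.

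The data are lists of peaks, stretches of the genome where precipitated DNA was concentrated, each with a summit and with a signal given by the authors' peak caller. The scale of the signal is not stated, nor whether it is the same in every list. Ranks are within a list, and the values of both replicates, their mean ± SD and their ratio to the series value are given as a description of the deposited numbers. The series set holds 5116 peaks that passed a global irreproducible discovery rate (IDR, the expected share of peaks that would not recur between replicates) of 0.01, which is 2 on the −log10 scale. The single-replicate sets hold 3782 peaks in replicate 1 and 3940 in replicate 2. A second, less strict series set holds 5823 peaks. Read counts are not part of the lists, and the depth behind a peak is unknown. A peak was counted for a gene when its summit lay in the gene or within 2 kb of it, and as a promoter peak when the summit lay within 500 bp of an annotated transcription start site (TSS) of that gene.

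The sequences under 6 of the peaks are printed because the values below turn on them. They are the 4 strongest peaks of these genes, at Chro, Trl, mod(mdg4) and Cp190, and the promoter peaks of CTCF and Dref, which are 2 of the weaker peaks with the pentamer CGATA of BEAF-32. Each stretch is in the assembly dm6, read 5′ to 3′ on the strand of the gene. Capitals mark runs of at least 6 A or T and every match to CGATA on either strand, which reads TATCG on the opposite one. Up to 60 bases on each side of the summit are shown, without transcribed leader sequence, except at Chro. For Chro, 25 bases around the CGATA match are shown, and these lie in its 5′ UTR.
Chro (chr3L:22878882-22878906, minus strand): agTTTAAAgcTATCGacaggcaata
Cp190 (chr3R:15275331-15275451, minus strand): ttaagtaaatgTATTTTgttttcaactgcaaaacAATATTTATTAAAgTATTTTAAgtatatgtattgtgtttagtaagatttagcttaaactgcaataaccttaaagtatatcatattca
Trl (chr3L:14759449-14759569, minus strand): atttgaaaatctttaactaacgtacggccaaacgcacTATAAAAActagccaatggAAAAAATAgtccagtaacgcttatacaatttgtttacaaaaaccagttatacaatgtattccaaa
mod(mdg4) (chr3R:21378725-21378845, minus strand): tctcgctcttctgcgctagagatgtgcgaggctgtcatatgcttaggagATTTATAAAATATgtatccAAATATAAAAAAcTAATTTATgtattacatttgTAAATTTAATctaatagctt
CTCF (chr3L:7356465-7356580, minus strand): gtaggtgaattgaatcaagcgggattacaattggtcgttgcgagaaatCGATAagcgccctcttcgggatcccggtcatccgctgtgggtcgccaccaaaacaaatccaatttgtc
Dref (chr2L:9967230-9967312, minus strand): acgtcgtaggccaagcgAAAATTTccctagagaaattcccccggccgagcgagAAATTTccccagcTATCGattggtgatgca
The Cp190, Trl and mod(mdg4) stretches hold several long A/T runs and no CGATA. The longest unbroken A/T run was 13 bases at Cp190, 13 bases at mod(mdg4) and 8 bases at Trl. The Chro stretch has an A/T run of 6 bases beside its CGATA match, and the CTCF stretch has a CGATA match and no such run.

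Peaks of the CG14441 fusion lay at 8 of the 10 genes, which held 15 peaks among them. Over all protein-coding genes 35.6% had a peak in the gene or within 2 kb. A summit lay at a promoter of 7 of the 10 genes, beside 18.9% of all protein-coding genes. No peak of the series set lay at su(Hw) or ZIPIC, and mod(mdg4) had peaks but none at its own promoter. Longer genes have more room for a summit: the share of genes with a peak was 19.2% in the shortest quartile of gene length and 29.9%, 37.7% and 55.5% in the next ones. The 10 genes fell 0, 2, 4 and 4 into these quartiles, and 0, 1, 3 and 4 of them had a peak. The share with a promoter summit was 8.51%, 17.0%, 23.1% and 27.1% in these quartiles. Of the 10 genes, 0, 1, 3 and 3 had one there. No test was made of these shares.

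**Figure D1:**
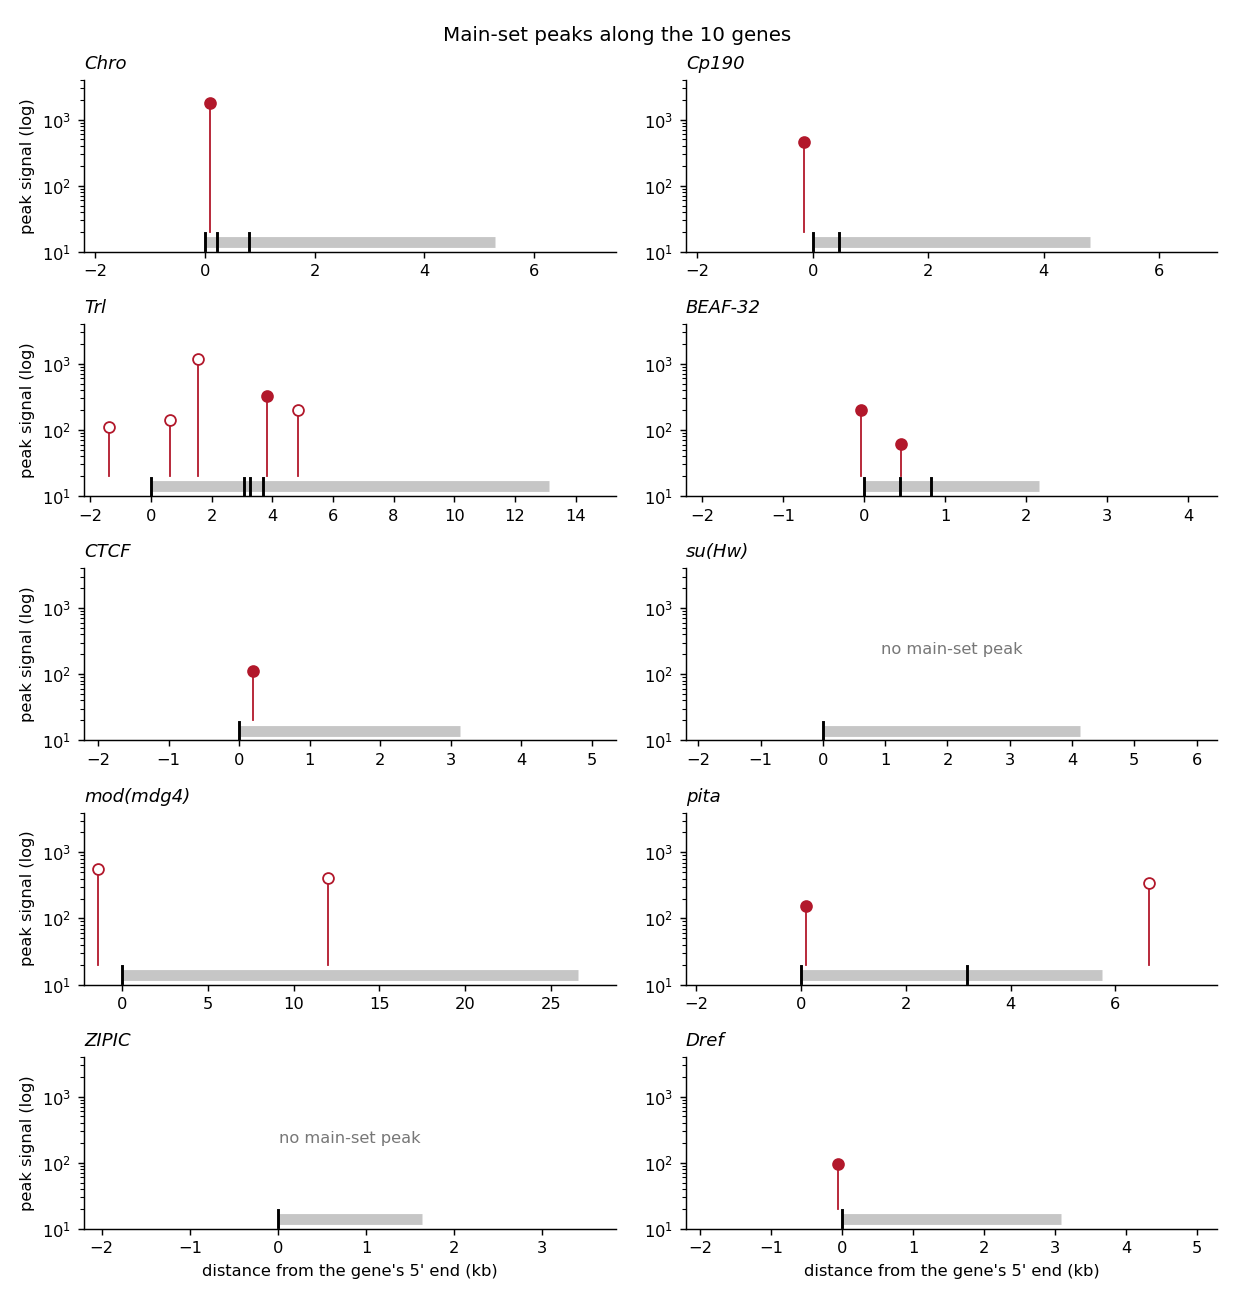
Each panel shows 1 gene from its 5′ end (0 kb) to its 3′ end as a grey bar, with TSSs as black ticks and each series peak as a stem whose height is the signal (log scale). Filled points are summits within 500 bp of a TSS of the gene and open points lie elsewhere; the tallest stems are at Chro (1792) and in an intron of Trl (1185).

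Chro encodes Chromator, a chromodomain protein of the interbands of polytene chromosomes that also has a part in cell division. Its single peak (chromosome 3L, 22878749 to 22879047) had a signal of 1031 in replicate 1 and 776 in replicate 2, a mean of 904 ± 180.4 (SD, n = 2). In the series set its signal was 1792, rank 14 of 5116. It was the strongest peak of the 10 genes in both replicates, at rank 14 in the list of replicate 1 and rank 18 in that of replicate 2. The summit lay 86 bp downstream of the 5′-most TSS of Chro, in the 5′ UTR, 130 bp and 714 bp upstream of its other TSSs. It also lay 191 bp upstream of a TSS of Ssl1, which encodes a subunit of the general transcription factor TFIIH. Only 1 of the 5 annotated Chro transcripts begins at the TSS nearest to the summit, and 3 begin 130 bp beyond it. Among the 2637 genes with a promoter peak, Chro ranked 14th by its strongest promoter signal.

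Cp190 encodes a zinc finger protein with a BTB domain that most fly insulator proteins recruit. Its peak (chromosome 3R, 15275284 to 15275512) had signals of 266 in replicate 1 and 191 in replicate 2, a mean of 229 ± 53.1 (SD, n = 2), and of 454 in the series set, rank 316. Cp190 has 2 annotated TSSs with 1 transcript each. The summit was 150 bp upstream of the 5′-most of them and 601 bp upstream of the other. It was also 131 bp upstream of CG4338, so it lay between the starts of both genes and counts for both. Which of the genes such a peak belongs to cannot be told apart from its position.

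Trl encodes the GAGA factor, which binds GA repeats at promoters and Polycomb response elements and helps keep them free of nucleosomes. It held 5 peaks, the most of the 10 genes, and its gene body of 13121 bp is longer than those of all the others but mod(mdg4). At least 5 peaks were found at 1 of the 10 genes, beside 1.26% of all protein-coding genes, and at least 2 peaks at 4 of the 10, beside 12.3%. These shares were not split by gene length, and longer genes have more room for several summits.

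The strongest Trl peak (chromosome 3L, 14759334 to 14759691) had a signal of 666 in replicate 1 and 513 in replicate 2, a mean of 590 ± 108 (SD, n = 2), and of 1185 in the series set, rank 45. It lay in an intron, 1540 bp downstream of the 5′-most TSS, with no TSS of any other gene within 500 bp. This intronic site was thus the second strongest of the 15 peaks. The only promoter peak of Trl, 116 bp downstream of an internal TSS used by 1 transcript, had 162.3 in replicate 1 and 162.4 in replicate 2 and 324 in the series set, rank 596. The smaller gene CG42507 overlaps that summit.

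The TSS at which 7 of the 10 Trl transcripts begin had no peak of the series set within 500 bp: its nearest summit was 742 bp away. The less strict series set did hold a peak there, 254 bp upstream of that TSS, with a signal of 64.0. A further intronic peak of the series set, 1137 bp from the nearest Trl TSS, had 98.2 in replicate 1 and 99.7 in replicate 2. The next intronic one, 634 bp downstream of the 5′-most TSS, had 74.0 in replicate 1 and 69.8 in replicate 2. These weaker sites gave nearly the same value in each replicate.

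The last Trl peak lay 1380 bp upstream of the gene and inside its neighbour Mgat4a, 401 bp from a TSS of that gene, which encodes a glycosyltransferase. It had 38.4 in replicate 1 and 68.5 in replicate 2, a mean of 53.5 ± 21.4 (SD, n = 2). Here replicate 2 gave the higher value, against the order seen at the strongest Trl site.

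mod(mdg4) encodes a large family of BTB proteins, made by splicing a common 5′ part to many alternative 3′ ends, some of them from the opposite strand, and 1 of its isoforms is a partner of su(Hw). Its stronger peak (chromosome 3R, 21378666 to 21378888) had 304 in replicate 1 and 259 in replicate 2, a mean of 282 ± 31.9 (SD, n = 2), and 563 in the series set, rank 207. The summit was 1384 bp upstream of the TSS that all 22 annotated mod(mdg4) transcripts share, and 192 bp upstream of tin, which encodes the homeodomain factor tinman of the heart and visceral mesoderm.

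The other peak of mod(mdg4) (chromosome 3R, 21365286 to 21365551) had 233 in replicate 1 and 174 in replicate 2, a mean of 204 ± 42.0 (SD, n = 2), and 412 in the series set, rank 386. It lay in an intron, 12003 bp from the mod(mdg4) TSS, amid the alternative 3′ ends. The annotation lists 23 short genes named pre-mod(mdg4) for these ends, 9 of them on the opposite strand. The summit was 90 bp downstream of the start of pre-mod(mdg4)-E, 108 bp upstream of pre-mod(mdg4)-AB and pre-mod(mdg4)-C, and 211 bp upstream of the shared start of pre-mod(mdg4)-AD, -AE, -U, -V, -W, -X and -Y. This 1 summit thus lay at the promoters of 10 annotated genes, all of which count in the share over all genes.

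pita encodes a zinc finger protein that recruits Cp190. Its promoter peak (chromosome 2R, 23554453 to 23554776) lay 97 bp downstream of the 5′-most TSS, in the 5′ UTR. This peak had 73.4 in replicate 1 and 79.4 in replicate 2, a mean of 76.4 ± 4.22 (SD, n = 2). In the series set it had 153, rank 1806. The other annotated pita TSS, of 1 transcript, lay 3064 bp from this summit and had no series peak within 500 bp. The stronger peak near pita (chromosome 2R, 23548039 to 23548187) lay beyond its 3′ end, 70 bp downstream of a TSS of wmd and 158 bp upstream of levy, which encodes a subunit of cytochrome c oxidase. It had 233 in replicate 1 and 108 in replicate 2, a mean of 171 ± 88.3 (SD, n = 2), and 348 in the series set, rank 532. The replicates were farther apart there than at the other 14 peaks, with an SD of 51.7% of the mean.

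BEAF-32 encodes a boundary factor that binds clusters of CGATA. Its stronger peak (chromosome 2R, 14770270 to 14770593), 37 bp upstream of the first TSS, had 99.2 in replicate 1 and 96.7 in replicate 2, a mean of 97.9 ± 1.75 (SD, n = 2), and 199 in the series set, rank 1247. The weaker one (chromosome 2R, 14770763 to 14771086), 9 bp downstream of the next TSS, had 34.0 in replicate 1 and 37.2 in replicate 2, and 61.2 in the series set, rank 4852. It was the weakest of the 15 peaks and passed the series threshold at 2.26 on the −log10 scale of the IDR. It did not pass within either replicate, with 0.618 in replicate 1 and 1.38 in replicate 2, and it was absent from the less strict series set.

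CTCF encodes the fly counterpart of the vertebrate insulator protein. Its peak (chromosome 3L, 7356363 to 7356686), 188 bp downstream of its TSS in an intron, had 59.8 in replicate 1 and 48.6 in replicate 2, a mean of 54.2 ± 7.89 (SD, n = 2), and 112 in the series set, rank 2682. Dref encodes the factor that binds the DNA replication-related element at promoters of replication and other housekeeping genes. Its peak (chromosome 2L, 9967123 to 9967446) had 67.4 in replicate 1 and 60.7 in replicate 2, a mean of 64.0 ± 4.78 (SD, n = 2), and 95.3 in the series set, rank 3241. The series summit was 56 bp upstream of Dref and 28 bp upstream of RpL13, which encodes a protein of the large ribosomal subunit, so it lay between both starts. The summit in the list of replicate 1 was 150 bp from the series summit, the farthest of the 15. It was shifted toward Dref and so lay inside that gene. The summit in replicate 2 was 6 bp from the series summit.

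**Figure D2:**
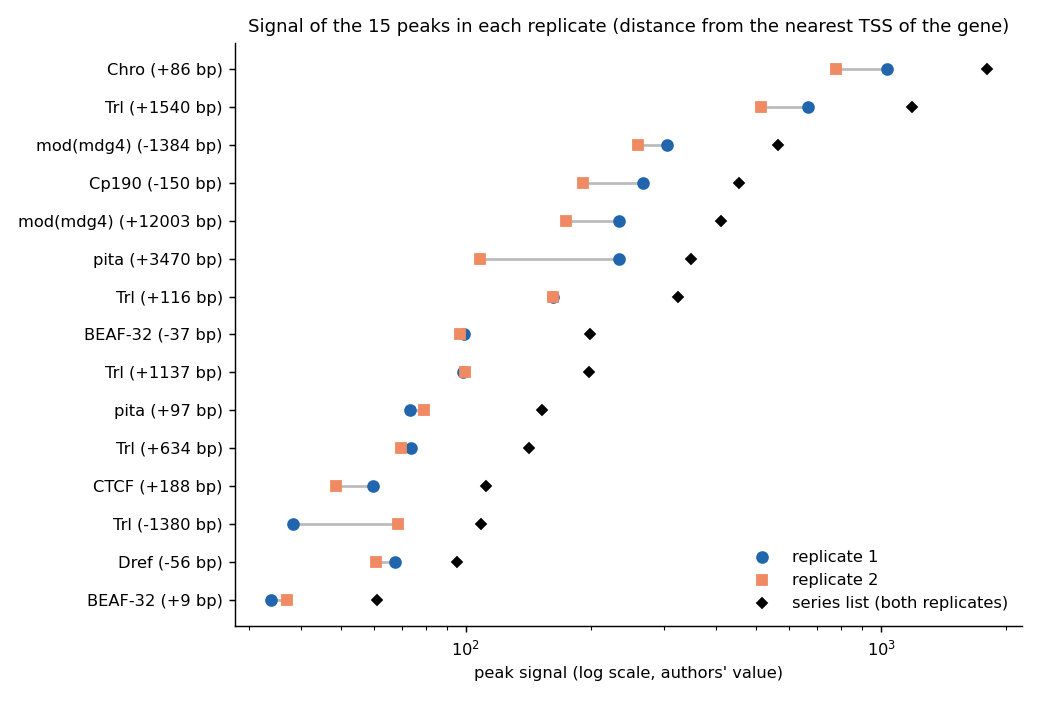
Signal (log scale) of each of the 15 peaks in replicate 1 (circles), replicate 2 (squares) and the series list (diamonds), with the distance of the summit from the nearest TSS of the gene. The circles lie to the right of the squares at 10 peaks, and the widest gaps are at pita (+3470 bp) and at Trl (-1380 bp).

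The series set was selected for peaks that recur between replicates, so some agreement at these peaks is built in. Of the 15 peaks, 14 overlapped a peak of both single-replicate sets and 1, the weaker BEAF-32 peak, overlapped neither, beside 55.4% of all series peaks found in both. Most of the 15 peaks were above the median signal of the series set, and shares at equal signal were not compared. Both single-replicate sets held a peak at 8 of the 10 genes, beside 25.6% of all protein-coding genes, and a promoter peak at 7 of the 10, beside 12.4%. The SD between the replicates was 11.3% of the mean at the median peak of the 10 genes, with a range of 0.0234% to 51.7%, and 14.4% over all series peaks. Replicate 1 gave the higher signal at 10 of the 15 peaks, and the first replicate column was the higher at 61.6% of all series peaks. The series signal was close to the sum of both replicates, with a median ratio of 0.999 and a lowest ratio of 0.744, at Dref.

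By signal, 11 of the 15 peaks lay above the median of the series set, which was 116, and 9 lay in its upper quartile, above 195. Only the weaker BEAF-32 peak lay in the lower quartile, below 82.7. The median peak of the 10 genes had a signal at or above that of 75.7% of the set. The order of the strongest promoter signals was Chro at 1792, Cp190 at 454, Trl at 324, BEAF-32 at 199, pita at 153, CTCF at 112 and Dref at 95.3. The values of the first 5 did not overlap those of any other over the replicates. CTCF, with 59.8 and 48.6 in the replicates, and Dref, with 67.4 and 60.7, stood in the reverse order in both replicates. The median of these 7 values was 199, and that over all genes with a promoter peak was 147. A gene with several peaks or starts has more chances of a strong one, which this median does not take into account.

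**Figure D3:**
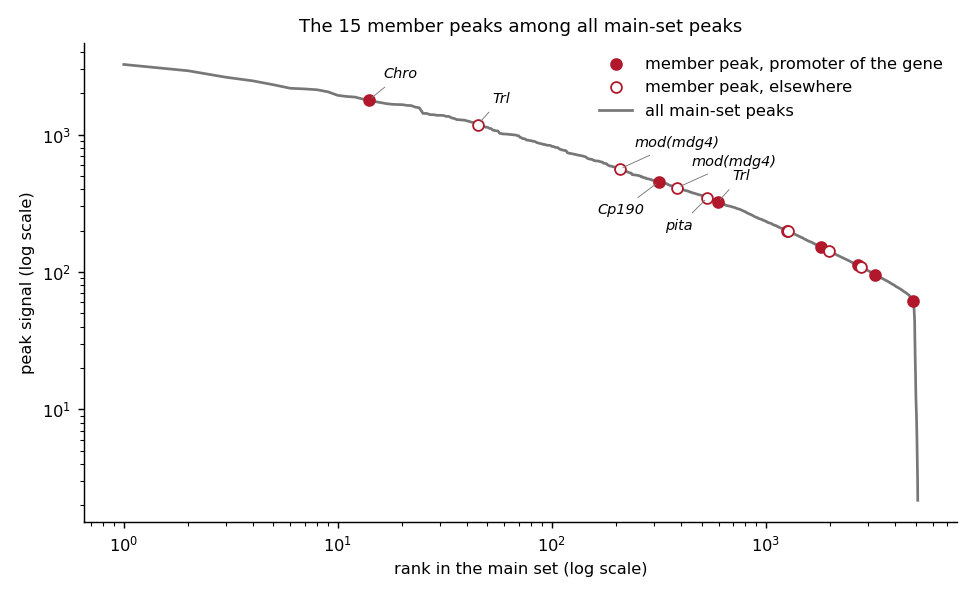
Signal (log scale) against rank (log scale) for all 5116 series peaks (line), with the 15 peaks of the 10 genes as points, filled at a promoter of the gene and open elsewhere. The points run from rank 14 (Chro) to rank 4852 (BEAF-32).

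The 15 summits were divided between the genes' own promoters, with 8, and other places, with 7. Of the 8 promoter summits, 3 lay upstream of the nearest TSS of the gene, at Cp190, BEAF-32 and Dref, and 5 lay downstream. For 6 of the 15 the nearest TSS was that of another gene, and 7 had the TSS of another gene within 500 bp. The remaining 8 had no other gene's TSS within 500 bp; these were 4 at Trl, 2 at BEAF-32, 1 at CTCF and 1 at pita.

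At su(Hw), which encodes the zinc finger protein of the gypsy insulator, and at ZIPIC, which encodes a zinc finger protein that recruits Cp190, the longer list of 122880 ranked candidates held only entries short of the IDR threshold. The strongest of 13 candidates at su(Hw) had a signal of 45.3, with 21.5 and 21.0 in the replicate columns and an IDR of 0.757 on the −log10 scale. It lay 384 bp upstream of the su(Hw) TSS and 116 bp upstream of Polr2I, which encodes a subunit of RNA polymerase II. The strongest of 9 candidates at ZIPIC had a signal of 33.0 and a −log10 IDR of 0.228, and lay beyond the 3′ end. Neither reached the threshold of 2 on that scale, which at an unknown depth does not show that no site exists there.

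In all, 143 candidates lay at the 10 genes, and 128 of them were not in the series set. At mod(mdg4), 1 candidate with a signal of 72.6 had a −log10 IDR of 2.31, past the threshold, and was still missing from the series set. It lay beyond the 3′ end (chromosome 3R, 21350082 to 21350405), 643 bp upstream of aus, and had 32.2 and 46.4 in the replicate columns. Over the whole list 119 of 5235 candidates past the threshold were missing in this way, 82 of them on chromosome 3R. They touched 108 protein-coding genes, 0.774% of all. Just below the threshold, a candidate at Trl with a signal of 64.0 had a −log10 IDR of 1.99. It lay 254 bp upstream of both CG42507 and the TSS of 7 Trl transcripts. It was a peak of the less strict series set. A candidate of mod(mdg4) with 75.5, 51 bp upstream of pre-mod(mdg4)-AA, was in that set too, at a −log10 IDR of 1.22.

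**Figure D4:**
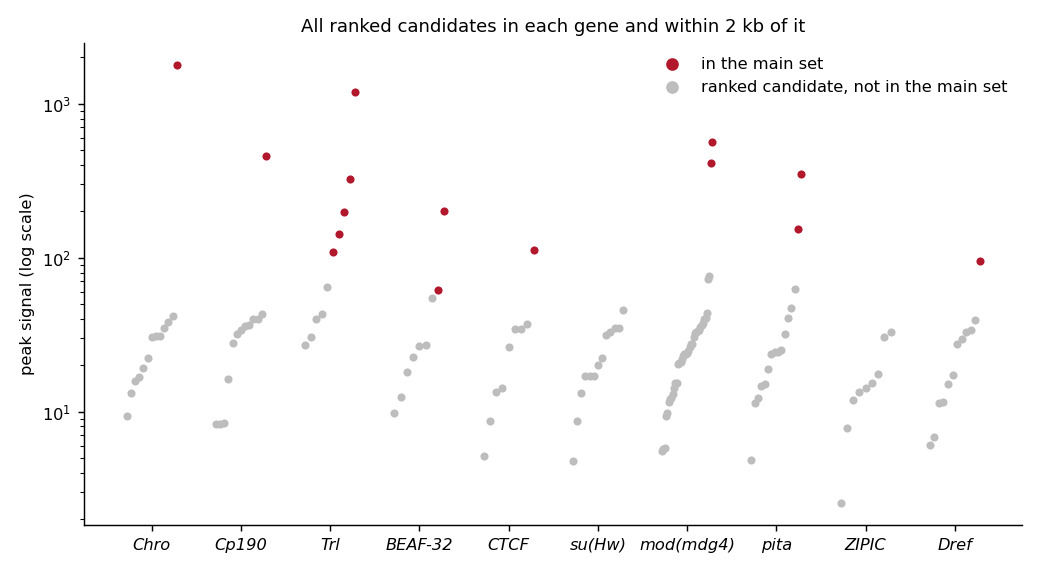
Signal (log scale) of all 143 ranked candidates in each gene or within 2 kb of it, in order of signal within the gene, with the 15 peaks of the series set in red. The strongest candidates of su(Hw) (45.3) and ZIPIC (33.0) lie below every red point.

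The DNA under the summits was rich in A and T. Within 50 bp of the summit the A/T share was 66.3% at the median of the 15 peaks, with a range of 39.6% to 79.2%, and it was 53.5% at the median in their flanks, 400 to 500 bp away. Over all series peaks the medians were 66.3% at the summit and 56.9% in the flanks. The share was above that of the flanks at 11 of the 15 peaks, equal to it at Chro, and below it at the remaining 3, beside 71.4% of all series peaks above. The widest differences were at Cp190, with 78.2% at the summit and 47.0% in the flanks, and at the intronic mod(mdg4) peak, with 79.2% and 52.5%. The weaker BEAF-32 peak went the other way, with 39.6% at the summit and 63.4% in the flanks.

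**Figure D5:**
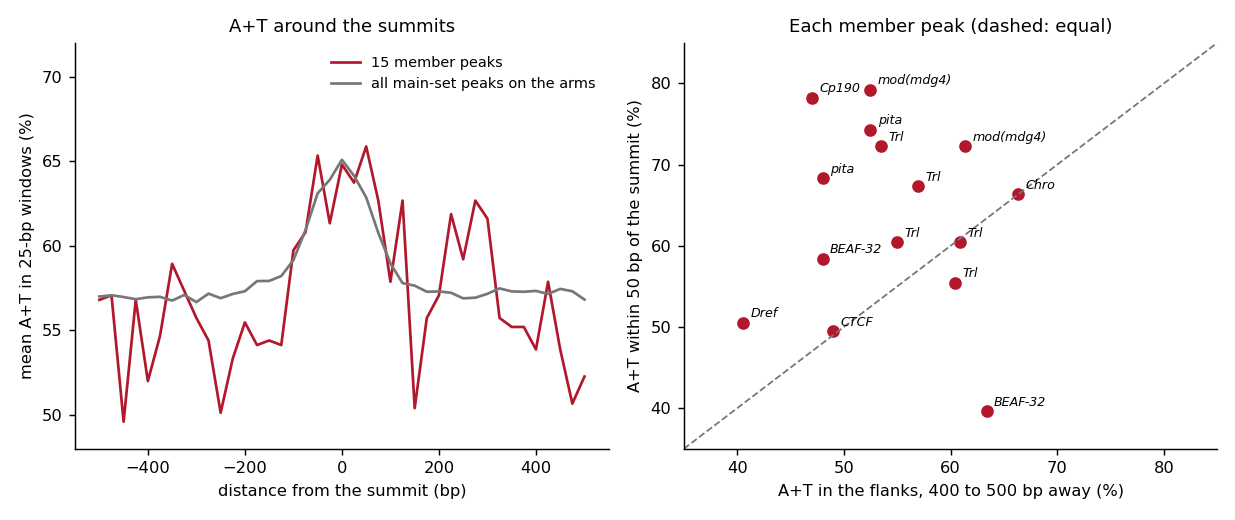
Left, mean A/T share in 25-bp windows against distance from the summit for the 15 peaks (red) and all series peaks on the arms (grey). Right, A/T share within 50 bp of each of the 15 summits against that of its flanks; 11 points lie above the dashed line of equality and the weaker BEAF-32 peak lies farthest below it.

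Sequences bound by BEAF-32, Dref, the GAGA factor, CTCF and su(Hw) were looked for within 100 bp of each summit on both strands. Motif 1 and the E-box were looked for too, but no sequence of pita or ZIPIC. CGATA, the pentamer of BEAF-32, was found at 6 of the 15 summits, beside 27.2% of all series summits and 39.4% of windows of the same length at the TSSs of all protein-coding genes. These were Chro, the weaker BEAF-32 peak, CTCF, both pita peaks and Dref. The match lay 4 bp from the summit at Chro, 5 bp from it at CTCF, 15 bp at BEAF-32 and 41 bp at Dref. At pita it was farther away, with 69 bp at the promoter peak and matches at 69 bp and 94 bp at the other peak. TATCGATA, the core of the DNA replication-related element that Dref binds and which contains CGATA, was at 0 of 15, beside 2.97% of series summits and 7.84% of TSS windows. GAGAG, bound by the GAGA factor, was at 0 of 15, beside 22.2% and 22.5%. This count depended on the window: within 150 bp GAGAG was at 3 of 15 summits, 1 each at Trl, pita and Dref, beside 34.7% of series summits, and TATCGATA was at 1 of 15, at pita, beside 4.16%. The CTCF core AGGNGGC was at 0 of 15, beside 6.35% and 6.09%, and the su(Hw) core TGCATA was at 2 of 15, the intronic mod(mdg4) peak and the promoter peak of pita, beside 14.6% and 7.68%. The Motif 1 core GGTCACA, known from housekeeping promoters, was at 0 of 15, beside 3.05% and 8.25%, and so was the E-box CAGCTG, beside 9.23% and 13.8%. A match is a description of letters and not a bound site, and with 15 summits at 8 genes such counts carry little weight.

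Genes of known partners and cofactors of these proteins were set beside them. Of 28 such genes 14 had a series peak, beside 35.6% of all protein-coding genes. A promoter peak lay at 11 of them, which is 39.3%, beside the 18.9% of all protein-coding genes given above. The lengths of these 28 genes were not taken into account. The strongest promoter signal among them was at pds5, a cofactor of cohesin, with 951. Nup98-96, which encodes a pair of nuclear pore proteins, followed with 376, then SA1, a subunit of cohesin, with 357, and Cap-H2, a subunit of condensin II, with 247. JIL-1, the kinase of histone H3 found at interbands, had 189.7, and M1BP, the Motif 1 binding protein, had 186. The genes of the insulator cofactors Ibf1 and Ibf2, of Elba1, Elba2 and Elba3, and of the cohesin core subunits SMC1, SMC3 and vtd were among the 14 without a series peak.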

How the data were processed

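The data are ChIP-seq peak lists of 1 group with 2 biological replicates. Per the text listings deposited with them, the lists were made on the assembly dm6 from alignments of each replicate and of a control, which were not used here. Which aligner and peak caller made them, and in which versions, is not given in the sources used here. The signal column, as deposited, is what the authors' peak caller gave each peak. Summits are deposited in bp counted from the start of the peak, a unit classed as other. The authors' global IDR is deposited as a −log10 value. Replicate values were read from each replicate's own list and equalled the unnumbered replicate columns of the ranked series list at all 15 peaks.

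The series set is the conservative thresholded list. Genes and TSSs came from Ensembl release 115 (BDGP annotation 6.54), and sequence from the dm6 reference. Coordinates are 1-based, and overlap means at least 1 bp. Python 3.11.15, numpy 2.4.6, pandas 2.3.3 and matplotlib 3.10.9 were used, and the counting was tested on simulated data. No p-values were computed, since there is 1 group. The text names all 10 genes with their peaks, the other genes with a TSS within 500 bp of these summits, the 6 partner genes with the strongest promoter peaks, and at most 5 candidates; the partner genes without a peak, the neighbours of candidates and the strongest ZIPIC and su(Hw) candidates were named after their values were seen. The members and lists were chosen with earlier results of these data known.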

Additional observations from a re-analysis of the deposited data

How the results depend on the processing

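Under the alternatives run, 6 to 9 of the 10 genes had a peak (6 among series peaks above the median signal, 9 with 5 kb flanks). With 5 kb flanks su(Hw) gained a peak of 74.9 at 2580 bp upstream. The 10 genes held 11 to 18 peaks, and 5 to 7 genes had a promoter summit. Between 11 and 14 peaks overlapped both replicate sets, out of a total that changed with the setting. These were 11 of 11 above the median signal and 13 of 13 at a −log10 IDR of at least 3. With 5 kb flanks they were 14 of 18, and with an overlap of at least 50% they were 12 of 15. Of the partner genes, 9 to 12 had a promoter summit. The shares over all genes also changed with the setting. The share with a peak was 38.75% in the less strict set, 30.58% to 30.60% when a replicate was left out, 26.40% at a −log10 IDR of at least 3, 23.86% above the median signal, and 29.53% and 49.54% with flanks of 1 and 5 kb. The share with a promoter summit was 20.92% in the less strict set, 15.50% to 15.95% without a replicate, 13.32% at a −log10 IDR of at least 3, 11.93% above the median signal, 14.98% and 22.34% with windows of 250 and 1000 bp, and 16.69% with the 5′ end as the TSS. The median percentile of the signals, 75.65% in the report, was 78.43% in the less strict set, 71.80% to 72.59% without a replicate, 80.41% at a −log10 IDR of at least 3 and 70.04% with 5 kb flanks. At a −log10 IDR of at least 3, 0 candidates at the 10 genes were missing. TATCGATA was at 1 peak with 5 kb flanks and at 1 within 150 bp, and GAGAG was at 1 in the less strict set, at 1 with 5 kb flanks and at 3 within 150 bp. The cause of these shifts was not tested. No paired analysis was possible because the replicates form a single group. The lists hold no read counts, so depth limits cannot be given, and a gene without a peak may still be bound.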
